A study of Rattus norvegicus with 18 samples.

Results

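The response of the rat hippocampus to training was examined in animals on the isocaloric diet, by setting 4 arrays from trained rats against 2 arrays from naive rats. These 6 arrays were chosen by their sample descriptions out of 18 in the series, and 1 trained sample, replicate 3, carries the spelling Icocaloric. The series, whose title names learning disabilities and rats exposed to alcohol before birth, also holds 4 trained and 4 naive samples on an alcohol diet and 2 trained and 2 naive samples on a control diet. All 18 samples are total RNA of hippocampus, 1 Affymetrix array each. An isocaloric diet, as the term is generally used, supplies the calories of an alcohol diet without the alcohol. Training is abbreviated CFC and left unexplained. The labels give neither the interval from training to dissection nor age, sex, strain or litter. Nor do they say that replicates are separate animals, so a p-value reflects only how far these samples spread, and that spread may be technical.

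The hippocampus is needed for forming memories of places and events. In neurons of this region, learning is known to be followed by a brief wave of transcription. Calcium entering through NMDA-type glutamate receptors activates calmodulin-dependent kinases and the transcription factor CREB, and these switch on immediate early genes such as Fos, Arc, Egr1 and Nr4a1. Slower changes in receptors, cytoskeleton and protein synthesis are known to follow.

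Levels are log2(signal + 6.06), and a difference is the trained mean minus the naive mean on that scale, so that -1 is a halving of a bright signal and changes of dim probe sets are understated. A probe set is the group of probes for one transcript. A difference passed when its Benjamini-Hochberg adjusted p from limma, over all 9520 probe sets tested, was under 0.05. The isocaloric arrays were alike by correlation. Log2 levels correlated at 0.975 to 0.981 between trained arrays, 0.985 between the naive arrays and 0.974 to 0.981 across the groups. Gapdh signal 3′ over 5′, a sign of RNA integrity, averaged 0.13 in log2 with training and 0.14 without (exact permutation p = 0.867, two-sided). With 4 arrays against 2 that test has 15 arrangements and cannot give less than 0.0667. Total signal was 2.98e+06 to 3.03e+06 on trained and 2.95e+06 to 2.96e+06 on naive arrays. Median signal was 73.9 to 78.0 on trained arrays and 77.1 and 80.3 on naive arrays. On the arrays of the other diets it was 67.7 to 75.4. Markers of tissue around the hippocampus were uneven. Trained replicate 3 had a level of 12.54 for Ttr, transthyretin, the main secreted protein of the choroid plexus, against 7.55 to 9.20 on the other trained arrays and 6.80 and 6.10 on the naive arrays. Summed signal of meningeal markers was 2916 on trained replicate 3 and 2875 on naive replicate 1, against 1460 to 1606 on the other trained arrays and 1366 on naive replicate 2. In bulk tissue, fewer cells of a type and less RNA per cell cannot be told apart.

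No probe set passed in the comparison of trained with naive isocaloric rats: 0 of 9520, or 0%, were called by limma, and the smallest adjusted p was 0.0660. At an unadjusted p under 0.05 there were 678, of which 329 (3.46%) were higher and 349 (3.67%) lower in trained rats. All 4 trained arrays lay above both naive arrays for 1063 probe sets (11.2%) and below both for 1115 (11.7%). Centring each array on its median moved these shares to 14.6% and 7.07%. The median difference over all probe sets was -0.01, the median standard error (SE) 0.14, and 9 probe sets differed by more than 2-fold. The count of calls changed with the handling of the arrays. It was 2 with quantile normalisation, 2 without the 4 arrays of the series high in Ttr, 1 without naive replicate 1, and 46 when limma weighted the arrays by their agreement with their group. The genes below are therefore given as levels that differed without passing.

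The smallest p-values belonged to lower levels. Fam131a was at 8.81, 8.70, 8.57 and 8.71 in the 4 trained samples and at 9.35 and 9.26 in the naive samples, a difference of -0.60 (SE 0.10, adjusted p = 0.0660). The groups did not overlap, and the nearest trained and naive arrays were further apart than the trained arrays were among themselves. Nras, a small GTPase that passes growth factor signals to the MAP kinase cascade, was at 6.73, 7.12, 6.99 and 7.11 in trained and at 8.20 and 8.22 in naive samples. Its difference was -1.23 (SE 0.21, adjusted p = 0.0660), but a second Nras probe set differed by -0.07 (SE 0.12), so the gene's probe sets disagree in size. Among 19 alternative analyses Nras passed in 6 and Fam131a in 3, with adjusted p from 0.00180 to 0.713 and from 0.00180 to 0.755, and neither changed sign.

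The other 8 leading lower genes have varied known roles. Uimc1, a ubiquitin-binding protein of the DNA damage response, was at 7.30, 6.89, 7.57 and 7.25 in trained and 8.21 and 8.34 in naive samples, a difference of -1.03 (SE 0.20, adjusted p = 0.185). The La protein Ssb, which binds and protects new RNA polymerase III transcripts, was at 8.14, 8.02, 8.59 and 8.10 against 8.76 and 8.90 (-0.61, SE 0.14, adjusted p = 0.275). Trained replicate 3, the array high in Ttr, was the one nearest to the naive arrays for Ssb. Lats1, a kinase of the Hippo pathway, lay at 6.02 to 6.06 on 3 trained arrays, at 6.49 on trained replicate 1, and at 7.26 and 6.98 on the naive arrays (-0.97, SE 0.23). Slc8b1, the sodium/calcium exchanger of mitochondria, differed by -0.75, and Nrep, a neuronal protein linked to nerve regeneration, by -0.67. The sialyltransferase St6galnac3 differed by -0.61 and the endosomal syntaxin Stx12 by -0.45. Ube2d2, a ubiquitin-conjugating enzyme, differed by -0.63, but of its 3 probe sets 1 had the opposite sign. For these genes from Ssb on, limma's adjusted p was 0.275.

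The 10 leading higher genes were likewise varied. Scn3a, a voltage-gated sodium channel, was at 7.08, 7.23, 6.94 and 6.94 in trained and at 6.21 in both naive samples (0.84, SE 0.17, adjusted p = 0.185). Mapt, the microtubule-binding protein tau, was at 9.97, 10.23, 10.15 and 10.11 against 9.35 and 9.31 (0.79, SE 0.17, adjusted p = 0.275). The other Mapt probe sets differed by 0.27 and 0.12, in the same direction and by less. Gabbr1, a subunit of the GABA-B receptor, was at 8.19, 7.998, 7.59 and 8.22 against 6.86 and 7.54 (0.80, SE 0.19), and the other 3 of its 4 probe sets had the opposite sign, down to -0.54. Its probe sets therefore give no single direction for the gene.

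Zfyve19, a phosphoinositide-binding protein of cell division, was at 5.95, 6.21, 5.91 and 6.39 against 4.82 and 5.04 (1.18, SE 0.24, adjusted p = 0.185). Tsen15, a subunit of the tRNA splicing endonuclease, was at 6.82, 6.68, 6.26 and 6.20 against 5.85 and 3.91 (1.61, SE 0.38, adjusted p = 0.275). The naive values of Tsen15 lay further apart than any trained pair, so its size rests largely on naive replicate 2. That value and both naive values of Zfyve19 were dim, under 5.78, the level that the mean over all arrays had to reach. Acsl6, the acyl-CoA synthetase of brain lipids, differed by 0.59, Mpnd by 0.68, and the ubiquitin ligase Ube4b by 0.57, with 0.07 on a second Ube4b probe set. Csnk2b, the regulatory subunit of casein kinase 2, differed by 0.50, and Eif3i, a subunit of translation initiation factor 3, by 0.37.

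**Figure D1:**
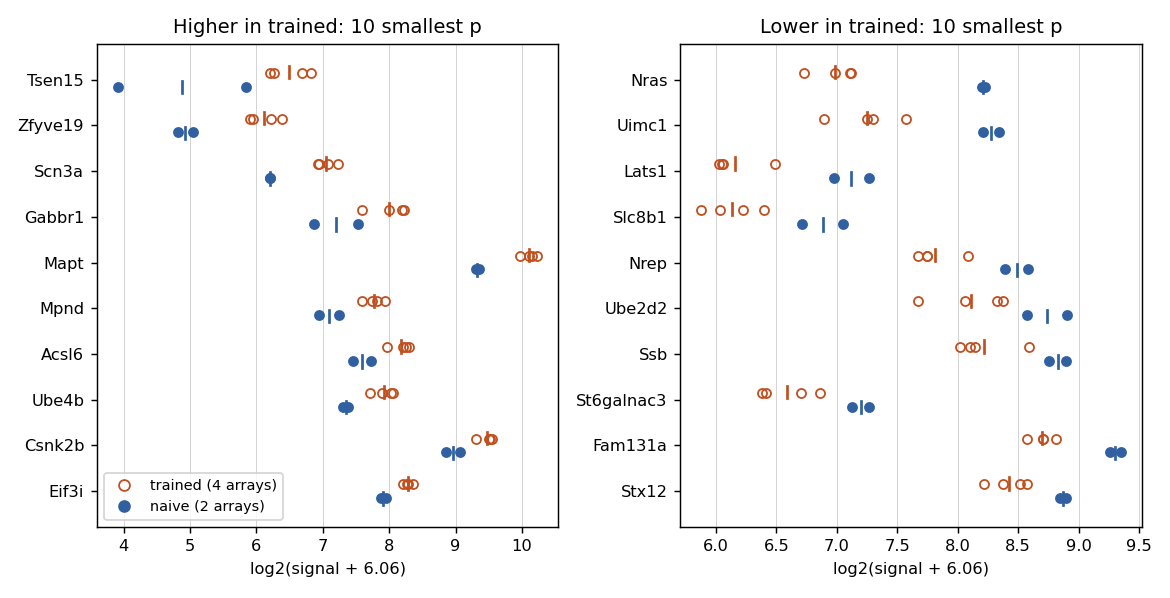
Levels, log2(signal + 6.06), of the 10 genes with the smallest p in each direction on the 4 trained (open) and 2 naive (filled) isocaloric arrays, with vertical ticks at the group means. The trained and naive points of each gene do not overlap, and the widest gap within a group is that of the naive values of Tsen15, 5.85 and 3.91.

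These 20 genes were also set against the 12 arrays of the other diets. Both naive arrays lay outside the range of those arrays for 11 of the 20 genes. The trained mean lay inside that range for 20 of 20, as it did for 9220 of all 9520 probe sets. Over all 9520 probe sets both naive arrays lay outside for 6.95% and all 4 trained arrays for 0.242%, shares that differ also because 2 arrays fall outside more readily than 4. Fam131a, for example, was at 8.61 to 8.995 in the other diets, below both isocaloric naive arrays. The genes were chosen for the gap between the groups, so these counts describe them and are not a test.

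Genes known for their part in learning did not pass in either direction. Of 16 such genes chosen by name, 15 were measured above the low-signal filter, and 0 passed. Fos, the classical immediate early gene, had 2 probe sets, both under the filter, and reached at most 5.58 on any isocaloric array. Arc, whose mRNA moves to active synapses, was at 7.62, 7.83, 7.44 and 8.27 in trained and at 7.91 and 8.11 in naive samples. The groups overlapped, and the difference was -0.22 with a 95% interval of -0.59 to 0.15. Egr1, a zinc-finger transcription factor induced by activity, was at 9.05, 8.84, 8.77 and 9.05 against 9.10 and 9.31. Its trained arrays lay below both naive arrays by a narrow margin, with a difference of -0.28 and an interval of -0.63 to 0.07.

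Ptgs2, the inducible cyclooxygenase, was at 6.54, 6.44, 6.33 and 6.55 in trained and at 6.81 and 6.69 in naive samples (-0.29, interval -0.58 to 0.00434). The orphan nuclear receptor Nr4a1 differed by -0.12 (-0.41 to 0.16) and the scaffold gene Homer1 by 0.02 (-0.17 to 0.21). Bdnf, the neurotrophin of synaptic growth, was at 7.09, 6.88, 6.62 and 6.52 against 6.51 and 6.87 (0.09, interval -0.31 to 0.48). Its groups overlapped. Gap43 and Elavl4, a growth-cone protein and the RNA-binding protein HuD, differed by 0.06 and -0.06, Creb1 by 0.02, the kinase gene Prkcb by -0.01 and Nrgn, a calmodulin-binding postsynaptic protein, by 0.14. An interval that includes 0 does not show that a level was equal. The other 3 Homer1 probe sets differed by -0.25 to 0.10.

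Camk2a was the learning gene with the smallest p. It encodes the alpha subunit of calcium/calmodulin-dependent kinase II, the abundant kinase of the postsynaptic density. Its level was 8.25, 8.33, 8.50 and 8.51 in trained and 7.77 and 7.79 in naive samples, with no overlap. The difference was 0.62 (SE 0.27, unadjusted p = 0.0315, adjusted p = 0.663), and a second Camk2a probe set differed by -0.16 (SE 0.36).

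**Figure D2:**
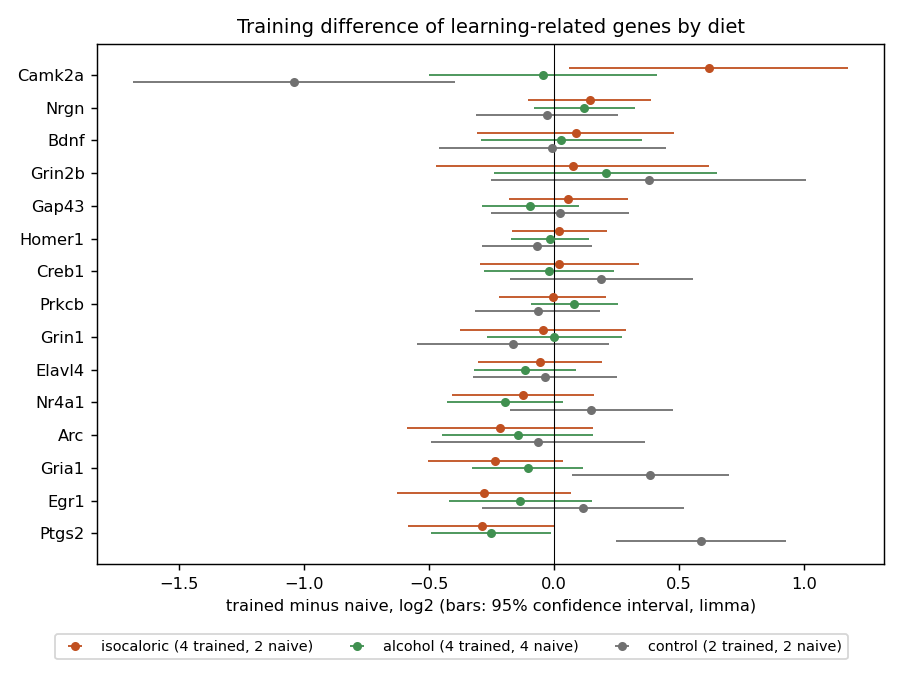
Trained minus naive differences in log2 of 15 learning-related genes on the isocaloric, alcohol and control diets, with 95% confidence intervals from limma. The isocaloric interval of Camk2a runs from 0.06 to 1.18 and that of each other gene includes 0.

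Of a wider list of 45 immediate early genes, 28 were tested. All 4 trained arrays lay above both naive arrays for 2 of them and below both for 6, and the median difference was -0.06. Over all 6938 genes, taken as 1 probe set each, the same shares were 11.9% above and 11.5% below, with a median of -0.01, and the list had 7.14% and 21.4%. The 6 lower members were Klf10, Klf6, Egr1, Ptgs2, Gadd45b and Dusp6. Klf10, a transcription factor induced by TGF-beta, was at 7.23, 7.12, 7.16 and 7.11 against 7.54 and 7.52 (-0.37, SE 0.18, adjusted p = 0.690). It was the only list member with an unadjusted p under 0.05. The mean level of the 28 genes was 7.35 to 7.47 on the trained arrays and 7.49 on both naive arrays, the 2 highest of the 18 arrays.

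CREB binds a palindromic element, TGACGTCA, in the promoters of many activity-induced genes. In RefSeq promoters of rat genome build GRCr8, limited to the 250 bases before each start site and read on both strands, 1.59% of 33469 promoters held this element. Among the 5818 tested genes with a promoter the share was 2.91%. Promoters matched for 22 of the 28 tested immediate early genes, and 2 held it, Dusp1 and Plk2. They are shown because they carry the site through which the textbook pathway acts, with the element in capitals. Dusp1 lies at chr10:17184709-17184756, plus strand, and Plk2 at chr2:43702450-43702497, plus strand.
Dusp1: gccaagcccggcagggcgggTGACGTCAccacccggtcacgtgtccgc
Plk2: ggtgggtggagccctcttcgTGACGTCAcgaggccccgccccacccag
Dusp1, a phosphatase that switches off MAP kinases, differed by -0.29 (SE 0.25), and Plk2, a kinase of synaptic scaling, by -0.06 (SE 0.10), and the groups overlapped for both. Of all 169 tested genes whose window held the element, 0 passed, 23 (13.6%) lay above without overlap and 16 (9.47%) below, and their median difference was -0.0001. A match of letters is a description and does not show binding.

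Around the synapse the members of one family pointed in different directions. Of 23 calcium/calmodulin kinases and phosphatases, 7 (30.4%) lay above and 4 (17.4%) below without overlap, with a median of 0.03. Over all genes these shares were 11.9% and 11.5%. Beside Camk2a, Camk2b was at 10.53, 10.65, 10.60 and 10.61 in trained and 10.36 and 10.34 in naive samples (0.24, SE 0.13), while the nuclear kinase Camk4 was at 5.61, 6.19, 5.90 and 6.03 against 6.31 and 6.46 (-0.45, SE 0.19). The unadjusted p was 0.0672 for Camk2b and 0.0319 for Camk4, and neither passed. Of 32 glutamate receptor and postsynaptic scaffold genes, 5 (15.6%) lay above and 4 (12.5%) below, near the shares of all genes, with a median of -0.01.

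Among these, Grin2a, an NMDA receptor subunit, was at 6.78, 6.84, 6.68 and 6.95 against 6.29 and 6.33 (0.50, SE 0.22). The AMPA receptor subunits split: Gria2 differed by 0.18 (SE 0.10), Gria1 by -0.23 (SE 0.13) and Gria3 by -0.35 (SE 0.15). Dlg4, the scaffold PSD-95, was at 7.71, 7.60, 7.34 and 7.65 against 8.09 and 7.99 (-0.46, SE 0.18, adjusted p = 0.634). The other 2 Dlg4 probe sets differed by -0.74 and -0.13, in the same direction. Members named here beyond the smallest p of each list were chosen after their values were seen.

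Ribosomal protein genes and the nuclear genes of oxidative phosphorylation had the 2 largest shares of members above both naive arrays among the lists with more than 10 genes tested. Ribosomal proteins form the small and the large subunit of the ribosome. Of 37 cytosolic ones tested, 0 passed, 33 had a positive difference, 23 (62.2%) lay above without overlap and 1 below, against 11.9% and 11.5% of all genes. Their median difference was 0.16, and 10 had an unadjusted p under 0.05, all 10 positive. The small subunit gave 11 positive of 11 (median 0.18) and the large subunit 22 of 26 (median 0.14), so the pattern was not limited to one of them. Both subunits are made of many small, bright transcripts on these arrays, and members are not independent replicates. The shares of all genes were not matched for brightness.

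Rps15 was the small subunit gene with the smallest p, at 10.03, 10.29, 9.91 and 9.88 in trained and 9.61 and 9.58 in naive samples (0.43, SE 0.14, adjusted p = 0.552). Rplp0, a protein of the stalk of the large subunit, was at 10.04, 10.12, 10.08 and 10.04 against 9.74 and 9.73 (0.33, SE 0.11, adjusted p = 0.513). Both naive arrays of Rplp0 agreed closely and lay below all trained arrays. Rpl35 differed by 0.44, Rpl12 by 0.41 and Rpsa by 0.38. The only member below both naive arrays was Rpl21, at -0.12 (SE 0.15).

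Oxidative phosphorylation uses complexes I to IV of the inner mitochondrial membrane to pump protons and complex V to make ATP. Of 71 nuclear-encoded subunit genes, 0 passed, 57 had a positive difference, 35 (49.3%) lay above without overlap and 1 (1.41%) below, and the median was 0.14. Complex I, which takes electrons from NADH, had 26 of 35 positive with a median of 0.15 and 16 above without overlap. Complex II, which oxidises succinate, had 3 of 4 positive and held the single member below, Sdhc. Complex III had 7 of 8 positive with a median of 0.10, complex IV 10 of 10 with 0.17 and complex V 11 of 14 with 0.18.

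The subunits with the smallest p came from complexes V and I. Atp5f1d, the delta subunit of ATP synthase, was at 9.71, 10.01, 9.92 and 9.99 in trained and 9.55 and 9.47 in naive samples (0.40, SE 0.10, adjusted p = 0.275). Ndufa3 of complex I was at 9.56, 9.48, 9.61 and 9.44 against 9.13 and 9.02 (0.45, SE 0.11, adjusted p = 0.276). Cox5b of complex IV was at 10.60, 10.89, 10.55 and 10.57 against 10.34 and 10.37 (0.30, SE 0.11, adjusted p = 0.612). Cyc1, cytochrome c1 of complex III, differed by 0.21. Of the 71 subunits 14 had a negative difference, 9 of them in complex I. The lowest were Atp5me of complex V at -0.38 (SE 0.18), Uqcr10 of complex III at -0.23 (SE 0.31) and Sdhc of complex II at -0.21 (SE 0.10), and of these 14 Sdhc alone had its trained arrays below both naive arrays.

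**Figure D3:**
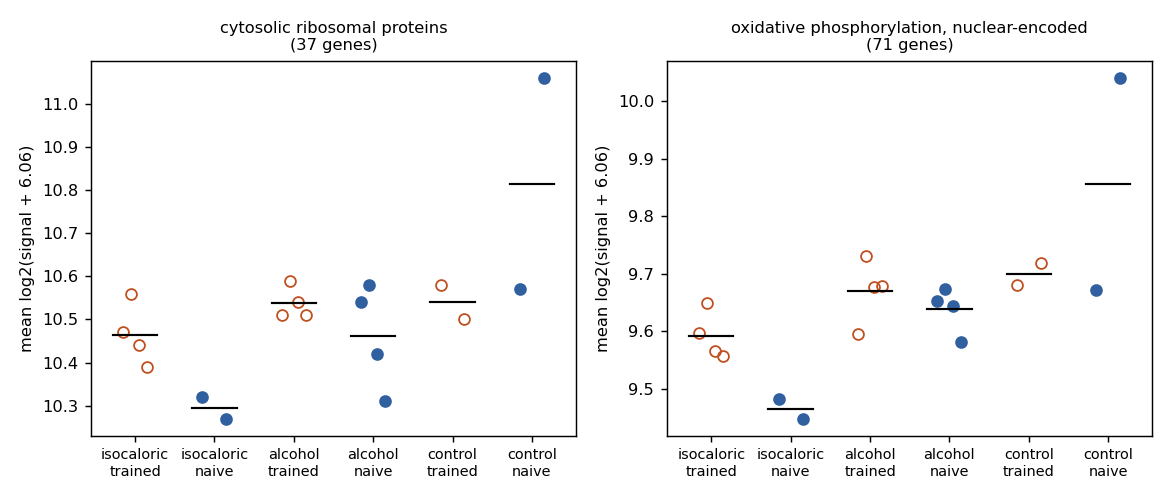
Mean level, log2(signal + 6.06), over 37 ribosomal protein genes (left) and 71 oxidative phosphorylation genes (right) on each of the 18 arrays, with group means as bars. The isocaloric naive arrays were the lowest 2 of 18 for oxidative phosphorylation, and control naive replicate 2 was the highest in both panels.

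Taken as a mean per array, the ribosomal proteins stood at 10.39 to 10.56 on the trained and 10.27 and 10.32 on the naive isocaloric arrays. Oxidative phosphorylation genes stood at 9.56 to 9.65 and at 9.45 and 9.48. The trained arrays lay within the span of the alcohol-diet arrays, 10.31 to 10.59 for ribosomal proteins, and also for oxidative phosphorylation, 9.58 to 9.73, except trained replicates 3 and 4 at 9.57 and 9.56. The naive arrays ranked 1 and 3 from the lowest of 18 for ribosomal proteins and 1 and 2 for oxidative phosphorylation. Naive replicate 2, lowest on both lists, had the highest median signal of the series, 80.3. Control naive replicate 2, highest on both lists, had the lowest, 67.7. Trained replicates 3 and 4 had a higher median signal than naive replicate 1 but also higher list means. The part of the signal distribution in these levels was not tested. Leaving out any isocaloric array in turn kept the list medians at 0.11 to 0.19 and at 0.12 to 0.15, and without the arrays high in Ttr they were 0.15 and 0.14. With quantile normalisation both medians were 0.08, and the members above without overlap numbered 14 of 37 ribosomal protein genes, down from 23, and 29 of 71 oxidative phosphorylation genes, down from 35.

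Promoters of such genes are known to be rich in sites for ETS-family factors and for nuclear respiratory factor 1 (NRF1). In the same 250 bases, CCGGAAGT, an ETS site, occurred in 3.10% of all promoters, in 7.36% of 5818 tested genes with a promoter, in 3 of 33 ribosomal protein genes and in 8 of 64 oxidative phosphorylation genes. GCATGCGC, the core of the NRF1 site, occurred in 2.20% of all promoters, 4.93% of tested genes, 7 oxidative phosphorylation genes and 0 ribosomal protein genes. The 3 motifs do not overlap one another in the windows shown, and in Ndufa11 and Atp5po the NRF1 core is also read on the other strand, overlapping itself. Shown are the 3 ribosomal genes with the ETS site, the oxidative phosphorylation gene with that site and the most positive difference, Cox5b, and the 3 with the NRF1 core and the most positive differences. Coordinates are GRCr8, the sequence is that of the gene's strand, and capitals mark the site.
Rpl27a, chr1:172974449-172974496, plus strand: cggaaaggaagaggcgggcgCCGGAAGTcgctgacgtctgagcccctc
Rpl41, chr7:1563536-1563583, minus strand: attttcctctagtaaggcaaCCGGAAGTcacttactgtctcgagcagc
Rps6, chr5:106420642-106420689, minus strand: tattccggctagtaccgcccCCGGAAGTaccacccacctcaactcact
Cox5b, chr9:46417803-46417836, plus strand: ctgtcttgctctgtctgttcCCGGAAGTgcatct
Ndufa11, chr9:1637505-1637552, plus strand: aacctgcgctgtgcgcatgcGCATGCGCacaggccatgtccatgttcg
Atp5po, chr11:44657513-44657560, minus strand: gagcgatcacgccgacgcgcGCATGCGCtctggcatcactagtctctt
Sdhb, chr5:158547747-158547794, plus strand: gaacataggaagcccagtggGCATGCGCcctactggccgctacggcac
The differences were 0.14 for Rpl27a, 0.24 for Rpl41, 0.20 for Rps6, 0.30 for Cox5b, 0.35 for Ndufa11, 0.26 for Atp5po and 0.23 for Sdhb. The oxidative phosphorylation genes shown were picked for positive differences, so their sign is set by the choice. In that list 5 of the 8 genes with the ETS site and 4 of the 7 with the NRF1 core lay above without overlap. These shares are near that of the whole list, 35 of 71 (49.3%). The list's median difference was 0.11 with the ETS site and 0.14 without it, and 0.21 with the NRF1 core and 0.13 without it. Atp5me, which holds the NRF1 core, differed by -0.38. Among all tested genes with the ETS site 13.6% lay above and 12.6% below without overlap. With the NRF1 core the shares were 15.7% and 12.2%, against 11.9% and 11.5% of all genes. Whether a site goes with the difference was not tested. The median difference of all tested genes with the ETS site was -0.01 and without it -0.01, and for the NRF1 core -0.003 and -0.01.

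Other lists gave smaller shares. Of 36 proteasome genes 10 (27.8%) lay above and 3 (8.33%) below without overlap (median 0.06). Of 35 chaperone genes 10 (28.6%) lay above and 2 (5.71%) below (median 0.05). Over all genes these shares were 11.9% and 11.5%. The proteasome gene with the smallest p, Psmd10, had a negative difference (-0.38, adjusted p = 0.628). Hsp90b1, the HSP90 of the endoplasmic reticulum, was at 9.90, 9.91, 10.03 and 9.73 against 9.67 and 9.59 (0.26, SE 0.11). Of 18 glucocorticoid and stress response genes 6 (33.3%) lay above and 1 (5.56%) below, with a median of 0.17. In that list Klf9, a hormone-induced transcription factor, was at 9.37, 9.33, 9.14 and 9.32 against 9.003 and 9.07 (0.25, SE 0.10), Nfkbia differed by 0.41 and Fkbp5, a chaperone of the receptor, by 0.24. The 1 lower member was the glucocorticoid receptor Nr3c1 itself, at 7.37, 7.46, 7.44 and 7.38 against 7.65 and 7.66 (-0.24, SE 0.10, unadjusted p = 0.0294). No gene of these lists passed.

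Translation factors (9 above and 5 below of 45), ubiquitin enzymes (4 and 3 of 35), potassium channels (3 and 1 of 26), cAMP signalling (2 and 3 of 25) and RNA splicing (3 and 7 of 46) had medians from -0.04 to 0.03. CREB and its coactivators (3 and 0 of 14), DNA methylation and histone modification (4 and 1 of 20), axon growth (5 and 4 of 28), neurotrophin signalling (1 and 2 of 18), GABA (1 and 2 of 14), protein kinase C (1 and 1 of 10) and cholesterol synthesis (1 and 3 of 19) are also plotted. Of all these lists the shares above were highest for CREB and its coactivators (21.4%), DNA methylation and histone modification (20%) and translation factors (20%), against 11.9% of all genes. Synaptic vesicle and active zone genes counted 3 (10%) above and 6 (20%) below of 30, against 11.9% and 11.5% of all genes. Within them Slc17a6, the vesicular glutamate transporter VGLUT2, was at 6.62, 6.48, 6.52 and 6.84 against 7.49 and 7.19 (-0.73, SE 0.21, adjusted p = 0.479). VGLUT2 also marks thalamic neurons, and the thalamus list, which holds it as the 1 member below, counted 1 above of 6.

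**Figure D4:**
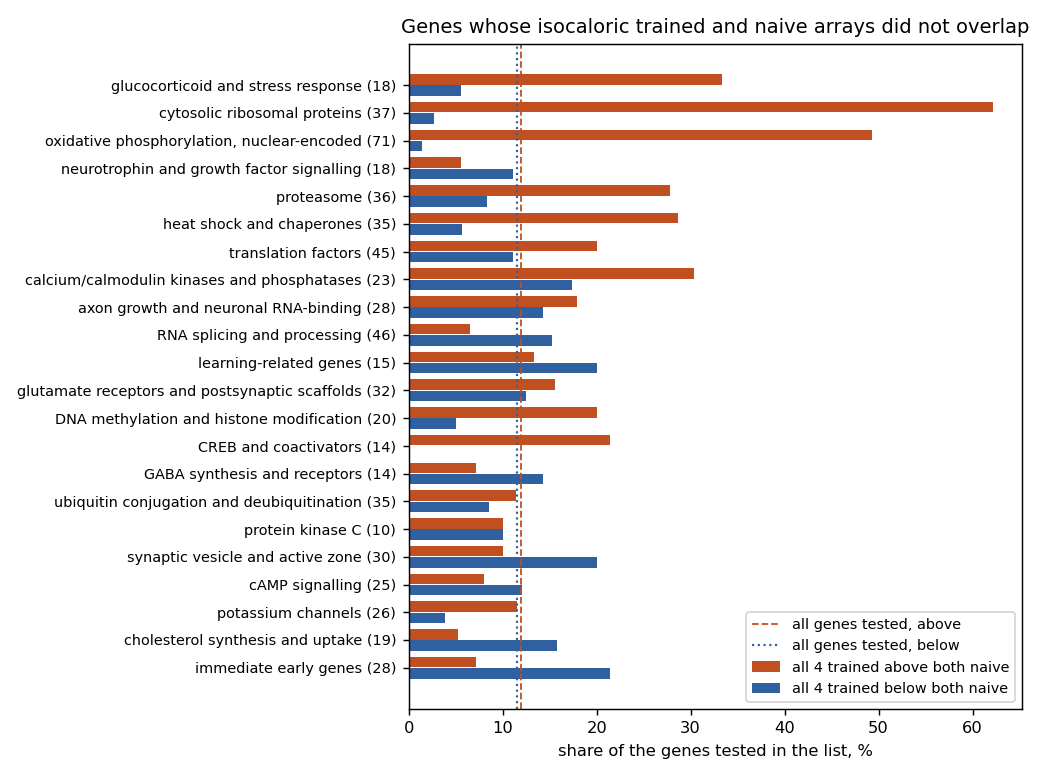
Share of the tested genes of each list, in percent, whose 4 trained isocaloric arrays all lay above (orange) or all below (blue) both naive arrays, with the number of genes in brackets and dashed and dotted lines at 11.9% and 11.5% for all genes. Ribosomal proteins reached 62.2% above and oxidative phosphorylation genes 49.3%, and immediate early genes 21.4% below.

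No marker of another cell type passed, and the smallest exact permutation p of any marker sum was 0.0667. Summed signal of 18 astrocyte markers was 24080 to 26230 on trained and 22460 to 23240 on naive arrays, without overlap (exact permutation p = 0.0667, the smallest possible). In that list of 18, 14 genes had a positive difference, and 4 (22.2%) lay above and 1 (5.56%) below without overlap. Over all genes these shares were 11.9% and 11.5%. Among the 4 was Aldoc, the aldolase of astrocytes, at 11.17, 11.46, 11.14 and 11.23 against 11.01 and 10.88. The 1 below was Atp1b2, which had the smallest p of the list. It was at 7.76, 7.77, 8.20 and 8.16 against 8.70 and 8.78 (-0.76, SE 0.30, adjusted p = 0.632). Neuron markers summed to 15800 to 16580 on trained and 16730 to 17040 on naive arrays (exact permutation p = 0.133). Their median difference was -0.03, with 2 (15.4%) above and 4 (30.8%) below of 13, and the enolase Eno2 differed by -0.29. Of 11 interneuron markers 0 lay above and 4 (36.4%) below, Sst, Npy, Slc32a1 and Htr3a. A positive difference was held by 3 of the 11, among them Gad1 (0.07) and Gad2 (0.12). Their summed signal overlapped, at 3867 to 4443 on trained and 4370 to 4461 on naive arrays (exact permutation p = 0.267). Sst, somatostatin, was at 8.38, 8.44, 8.47 and 8.80 against 8.84 in both naive samples (-0.32, SE 0.14). Of 13 microglia markers 3 (23.1%) lay above and 1 (7.69%) below. C1qb, a complement component, was at 7.41, 7.38, 7.62 and 7.56 against 6.87 and 6.98 (0.56, SE 0.16, adjusted p = 0.456), while the receptor Cx3cr1 differed by -0.42.

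Oligodendrocyte markers summed to 12090 to 14660 and 12060 to 12180, and microglia markers to 2475 to 2809 and 2401 to 2540. Choroid plexus markers summed to 11650 on trained replicate 3, to 1195 to 1746 on the other trained arrays and to 1095 to 1351 on the naive arrays. The part of these marker levels in the gene results was not tested. The ribosomal and oxidative phosphorylation medians were 0.15 and 0.14 without trained replicate 3.

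The alcohol diet offered a comparison with 4 trained and 4 naive arrays that shared none with the isocaloric groups. No probe set passed limma's test of the difference in training effect between the isocaloric and the alcohol diet: 0 of 9520 (0%) were called, the smallest adjusted p was 0.327, and 401 had an unadjusted p under 0.05. That count was 1 when arrays were weighted (Fam131a) or isocaloric naive replicate 1 was left out (Tsen15). Across the 9520 probe sets, which are not independent, the differences with the 2 diets correlated at r = 0.23 (Spearman 0.22). Of the 10 leading lower genes, 8 had a negative difference with the alcohol diet too, 5 of them at an unadjusted p under 0.05. Of the 10 leading higher genes, 6 were positive there and 1 at that level. Over all 9520 probe sets 47.7% were positive with alcohol, 453 were lower at an unadjusted p under 0.05 and 365 higher.

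Nras was at 6.86, 6.74, 6.75 and 7.54 in alcohol trained and at 7.92, 7.44, 7.57 and 8.06 in alcohol naive samples, a difference of -0.78 (SE 0.17, unadjusted p = 0.000243). Only trained replicate 4 overlapped the naive arrays. The second Nras probe set differed by -0.08 with alcohol. Stx12 was at 8.47, 8.52, 8.65 and 8.25 against 8.88, 8.77, 8.94 and 8.91 (-0.40, SE 0.09, unadjusted p = 0.000239), without overlap, beside -0.45 with the isocaloric diet. Ube4b differed by 0.39 (SE 0.11), beside 0.57, but its second probe set differed by -0.26 with alcohol. Klf10, the immediate early gene with the smallest p, differed by -0.45 (SE 0.14) with alcohol and -0.37 with the isocaloric diet. Neither diet gave a call for these genes.

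Other leading genes had no such match. Fam131a differed by 0.08 with alcohol, Scn3a by -0.28, Mapt by -0.06 and Tsen15 by -0.47. The largest differences between the 2 diets by p were those of Scn3a (1.12, SE 0.22), Tsen15 (2.09, SE 0.49) and the splicing factor Prpf8 (0.71, SE 0.19) on the positive side. On the negative side they were Fam131a (-0.68, SE 0.13), the heparan sulfate proteoglycan Sdc3 (-1.26, SE 0.26) and the actin cross-linker Actn1 (-0.96, SE 0.23). Their adjusted p ran from 0.327 to 0.9996, and a second probe set of Sdc3 and of Actn1 gave an isocaloric difference of opposite sign. The ribosomal and oxidative phosphorylation lists had medians of 0.07 and 0.04 with the alcohol diet.

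The control diet, with 2 trained and 2 naive arrays, differed more. Of the 9520 probe sets, 17 (0.179%) passed the test of the difference between the isocaloric and the control training effect, 7 positive and 10 negative. Across all probe sets the effects on the 2 diets correlated at r = -0.19 (Spearman -0.25), again without shared arrays. The count depended on single arrays. With isocaloric naive replicate 2 left out 0 passed (999 at an unadjusted p under 0.05), and with control naive replicate 1 left out 719. The other counts past 1.5 times were 71 without control naive replicate 2, 1 and 8 without control trained replicates 1 and 2, 5 without isocaloric naive replicate 1 and 7 and 10 without isocaloric trained replicates 3 and 4. Leaving out an array of a pair rests the spread on the other groups. Control naive replicate 1 and control trained replicate 2, the 2 arrays for which the submitters name MAS5, each stand in one control group, and 348 passed without them.

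Of the 20 leading genes of the isocaloric comparison, 1 of the 10 higher and 0 of the 10 lower had the same sign with the control diet, and 8 had the opposite sign at an unadjusted p under 0.05. Over all probe sets 52.8% were positive with the control diet, and 1036 (10.9%) had an unadjusted p under 0.05. Nras stood at 7.87 and 7.34 in control trained and at 6.86 and 6.84 in control naive samples, a difference of 0.76 (SE 0.24) where the isocaloric diet gave -1.23. The effects differed by -1.98 (SE 0.32, adjusted p = 0.0228). On the second Nras probe set they differed by -0.01 (limma adjusted p = 0.989), so the call rests on 1 probe set of the gene. Ssb was at 8.81 and 8.46 against 7.79 and 8.03, and its effects differed by -1.34 (SE 0.21, adjusted p = 0.0228). Isocaloric naive levels of Ssb, 8.76 and 8.90, were thus near the control trained levels. Nrep (-1.46, adjusted p = 0.0228), Taf9b, a subunit of transcription factor complexes (-1.65, adjusted p = 0.0429), the proteoglycan Srgn (-1.35, adjusted p = 0.0429) and St6galnac3 (-1.19, adjusted p = 0.0416) differed in the same direction. Both control naive values of Taf9b, 5.34 and 5.455, and the lower of Srgn, 5.59, were dim, under 5.78.

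Positive differences were led by Pde1b, a calmodulin-dependent phosphodiesterase that breaks down cyclic nucleotides. It was at 5.43, 6.35, 6.74 and 6.85 in isocaloric trained and 4.89 and 4.995 in isocaloric naive samples (1.40, SE 0.35), and at 5.13 and 4.65 in control trained and 6.52 and 6.40 in control naive samples (-1.57, SE 0.40). The effects differed by 2.97 (SE 0.53, adjusted p = 0.0288), and the groups did not overlap within either diet. The isocaloric naive and control trained values all lay under 5.78, the level that the mean over all arrays had to reach. The size of this difference therefore rests on dim signals. With the alcohol diet its difference was 0.15 (SE 0.28). Ext1, which builds heparan sulfate chains, differed between diets by 1.31 and Bola2, a factor of iron-sulfur delivery, by 1.02, both with adjusted p = 0.0429. Eif3i differed by 0.75 (adjusted p = 0.0288).

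For Rpl13a the isocaloric groups overlapped. Rpl13a, of the large ribosomal subunit, was at 10.03, 9.99, 10.21 and 10.02 in isocaloric trained and 10.02 and 9.93 in isocaloric naive samples. In control rats it was at 10.21 and 10.26 against 10.78 and 11.45, and the difference of effects was 0.97 (SE 0.19, adjusted p = 0.0429). Control naive replicate 2 held the high value. Abhd17a, an enzyme that removes palmitate from synaptic proteins, differed by 0.22 in isocaloric and -0.69 in control rats (difference 0.91, SE 0.15, adjusted p = 0.0228). The remaining calls were Hdac5, Ash1l, Plcl1, Eml1 and 1 probe set without a gene symbol, named here after their values were seen.

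The ribosomal and oxidative phosphorylation lists had medians of -0.26 and -0.17 with the control diet, opposite to the isocaloric values. Control naive replicate 2 was at 11.06 and 10.04 on these lists, the highest of 18 arrays, and control naive replicate 1 at 10.57 and 9.67. The control trained arrays stood at 10.58 and 10.50 for ribosomal proteins, so on this mean only control naive replicate 2 lay apart. Of the 37 ribosomal protein genes Rpl13a alone passed the test of the difference between diets, and of the oxidative phosphorylation genes none did.

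**Figure D5:**
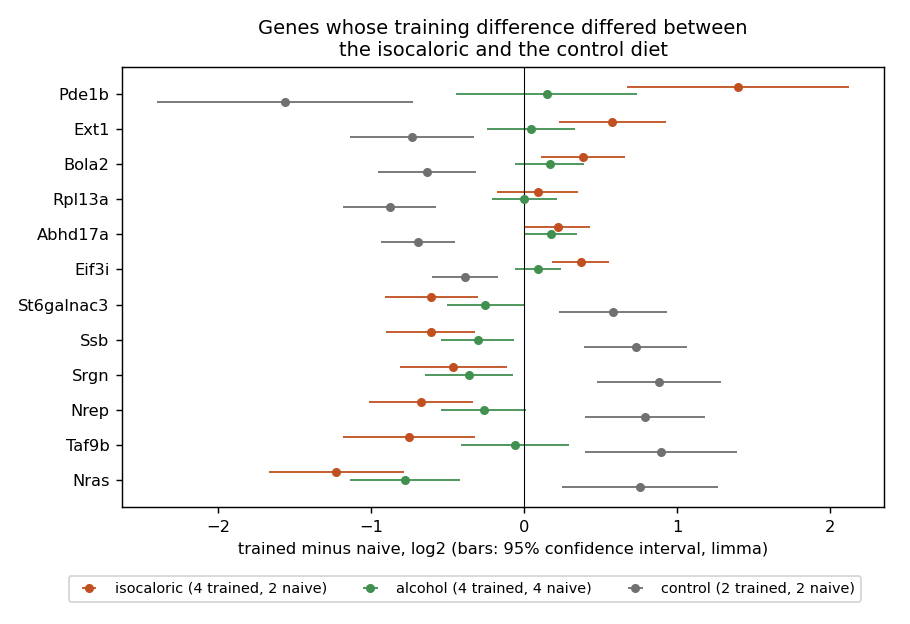
Trained minus naive differences in log2 with 95% confidence intervals on the isocaloric, alcohol and control diets, for the 12 named genes whose isocaloric and control effects differed at an adjusted p under 0.05. Isocaloric and control points lie on opposite sides of 0 for each gene, and the isocaloric interval of Rpl13a includes 0.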

How the data were processed

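Hippocampal RNA was measured on 18 arrays, 6 of them isocaloric. The values are probe set intensity as deposited by the authors, never log transformed. The submitters' processing notes name MAS5 for 2 control-diet arrays, while for the other arrays the sources used here name no algorithm. Each array had a 2% trimmed mean near 150, a common scaling, and the number of arrays limits the precision. Log2 was taken here of the deposited intensity plus 6.06, the 10th percentile of all values. Control probe sets and those with a mean log2 under 5.78 (the 40th percentile) were left out, leaving 9520. Symbols came from the platform annotation: 12789 probe sets had 1 symbol, 312 several and 2822 none. limma 3.58.1 in R 4.3.3 was fitted to all 6 groups of the series with intensity trend, and p-values were adjusted over all probe sets. A gene was represented in lists by its brightest probe set. Named were, where fewer than 5 passed, the 10 single-symbol genes with the smallest p in each direction, for each difference between diets the 5 largest of each sign that passed or else the 3 with the smallest p, each learning-related gene, and each list's members that passed or else the one with the smallest p. For some lists the member with the smallest p is not given above, and other members given were chosen after their values were seen. The fit was tested on simulated data. Members and lists were chosen with earlier results of these data known. Alternatives covered the added constant, filter, normalisation, array weights, replicate block, covariates for RNA integrity and each array left out.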

Additional observations from a re-analysis of the deposited data

Results flagged for a closer look

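Among 96 groups of 4 values examined, 6 held a sample far from the others, and chance gives about 1 in 20. Lats1 was at 6.49 on isocaloric trained replicate 1, against 6.02 to 6.06 on the other trained arrays. Prpf8 was at 9.60 on trained replicate 2 (others 9.19 to 9.25) and Map2, a dendritic cytoskeleton protein, at 10.30 on trained replicate 4 (others 10.37 to 10.38). Summed signal of astrocyte markers was 26230 on trained replicate 2 (others 24080 to 24210). On trained replicate 3 choroid plexus markers summed to 11650 (others 1195 to 1746) and meningeal markers to 2916 (other trained arrays 1460 to 1606, but naive replicate 1 at 2875).

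The training difference with the isocaloric minus that with the control diet passed limma's test of the difference for 12 named genes. The positive ones were Pde1b (2.97), Ext1 (1.31), Bola2 (1.02), Rpl13a (0.97), Abhd17a (0.91) and Eif3i (0.75). The negative ones were Nras (-1.98), Taf9b (-1.65), Nrep (-1.46), Srgn (-1.35), Ssb (-1.34) and St6galnac3 (-1.19). A second Nras probe set gave -0.01. The part of the control arrays' processing in these differences was not tested.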

How the results depend on the processing

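Learning-related genes with differences near 0 changed sign in 1 to 5 of 18 or 19 alternatives each: Bdnf (-0.09 to 0.27), Gap43, Elavl4, Grin1, Grin2b, Homer1, Creb1 and Prkcb. Alternatives were run for the ribosomal and oxidative phosphorylation lists, whose medians stayed positive, and for no other list. The count of isocaloric training calls, 0, was 1 with no filter on low values, 2 with the 60th percentile filter, with quantile normalisation, with only the groups compared and, an alternative chosen after seeing the data, without the arrays high in Ttr. It was 46 with array weights and 0 to 1 with each array left out. The isocaloric minus alcohol count, 0, was 1 with array weights and 0 to 1 with each array left out. The isocaloric minus control count, 17, was 7 with no filter, 34 with quantile normalisation, 10 with median centring, 4 with only the groups compared, 0 with array weights (999 at an unadjusted p under 0.05), 4 without the arrays high in Ttr, 348 without the 2 MAS5 arrays (also chosen after seeing the data) and 0 to 719 with each array left out. The median of ribosomal protein genes was 0.081 with quantile normalisation, and that of oxidative phosphorylation genes 0.083, and 0.18 with median centring. The causes were not tested. Small arms limit all of these: with 2 naive arrays, 1 array sets much of each difference.

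Whether replicate numbers pair the samples could not be settled. Deviations from the group mean of same-numbered trained and naive isocaloric arrays correlated at r = 0.073 and -0.045. With 2 naive arrays, the deviations of naive replicate 1 mirror those of naive replicate 2, so these values cannot exclude pairing. With the replicate block the counts were 2 for isocaloric training, 0 for isocaloric minus alcohol and 8 for isocaloric minus control.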
